A study of Mus musculus with 3 samples.

Results

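The axon guidance genes are the ligand and receptor families through which growing axons, migrating cells and vessels read attractive and repulsive cues, and 70 of the 31730 genes in the table belong to them. They were taken by symbol: the Slit ligands and Robo receptors (3 and 4 genes), the semaphorins with the plexins and neuropilins (20 and 11), the netrins with Dcc, Neo1 and the Unc5 receptors (4 and 6), and the ephrins with the Eph receptors (8 and 14). That made 35 ligands and 35 receptors, of which 68 had 10 or more unique molecular identifiers (UMIs, each counting 1 captured transcript) over all cells, and only these are named. The cells were lung mesenchyme of mouse pups that carried 1 allele each of Fgf18-CreERT2, a Cre-dependent ROSA tdTomato reporter and a Pdgfra EGFP reporter. All pups received tamoxifen from postnatal day 2 to day 5 and lungs were taken at day 7, so every group shares the 3 alleles and the drug. Cells were sorted into a GFP-low, TdT-neg gate (low Pdgfra reporter and no tdTomato, called GFP-low here; 1284 cells), a GFP-high, TdT-neg gate (called GFP-high TdT-neg; 3347 cells) and a GFP-high, TdT-high gate (cells in which Fgf18-CreERT2 had been active, called TdT-high; 1511 cells). Each gate gave 1 droplet library. The sort also yielded tdTomato-positive cells without GFP, which were not analysed here.

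Slit proteins are secreted and bind Robo receptors, which in most settings repel the cell that carries them. Class 3 semaphorins are secreted and act through a neuropilin that binds the ligand and a plexin that signals, whereas most other semaphorins sit in the membrane and bind plexins directly. Netrins attract through Dcc and Neo1 and repel through Unc5 receptors, and ephrins are anchored to the cell surface and bind Eph receptors on a touching neighbour, signalling in both directions. In the lung these families are known from branching, vessel growth and alveolar development.

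The libraries held 26586489, 68692834 and 34506226 UMIs in the order given above, with a median of 19798.5, 19629 and 22401 UMIs per cell, and only 4 cell barcodes occurred in more than 1 library. Levels are given as UMIs summed over cells and divided by the total, per 1000000 UMIs (CPM), with exact 95% Poisson intervals that cover counting error only. A level is compared between cell types and libraries for the same gene, not between genes, except to say which genes carry a sum. With 1 library per gate there was no replicate, so no difference was tested and every comparison describes these 3 libraries. A lower level in a library cannot be told apart from fewer cells of a type in it, so levels are also given within the deposited cell types (MatFB, AdvFB, MyoFB and DivFB types, abbreviations as deposited). The types fell unevenly on the gates: MatFB-Type 2 held 651 of the 1284 GFP-low cells, while MyoFB-IMR, MyoFB-Int and MyoFB-Ter held 1032, 1324 and 303 of the GFP-high TdT-neg and 467, 801 and 190 of the TdT-high cells. A list of 10 alveolar fibroblast markers summed to 18067 CPM in MatFB-Type 2, and 11 adventitial fibroblast markers to 15198 CPM in GFP-high TdT-neg AdvFB. A list of 10 myofibroblast markers summed to between 16891 and 18313 CPM in the MyoFB types of that library. Epithelial, endothelial, immune, mesothelial and neuron or glia lists each summed to at most 38.7 CPM in any library. The authors named the types from these same cells, so differences between types describe their classes and test nothing.

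The highest levels of guidance genes were spread over all the fibroblast classes. Of the 50 members that reached 10 CPM in some type with 50 or more cells, the highest level of 25 ligands fell 9 times in AdvFB, 8 times in a MyoFB type, 6 times in a MatFB type and 2 times in dividing cells. The highest level of the 25 receptors fell 9 times each in MatFB and MyoFB types, 6 times in AdvFB and 1 time in dividing cells. Summed ligands were highest in MatFB-Type 2, at 6143 CPM, and lowest in dividing DivFB-S/G2M cells, at 1050 CPM. Summed receptors were highest in GFP-high TdT-neg MyoFB-IMR, at 6855 CPM, and lowest in GFP-low AdvFB, at 2417 CPM. Slit2 carried most of the ligand sum in MatFB-Type 2 and Robo1 and Robo2 most of the receptor sum in MyoFB-IMR, so these sums follow a few genes. Every gene has a highest type and some levels are nearly equal, as for Efnb1 at 82.2 CPM in MatFB-Type 1 and 81.7 CPM in DivFB-G2M, so these tallies only describe where levels lay.

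**Figure D1:**
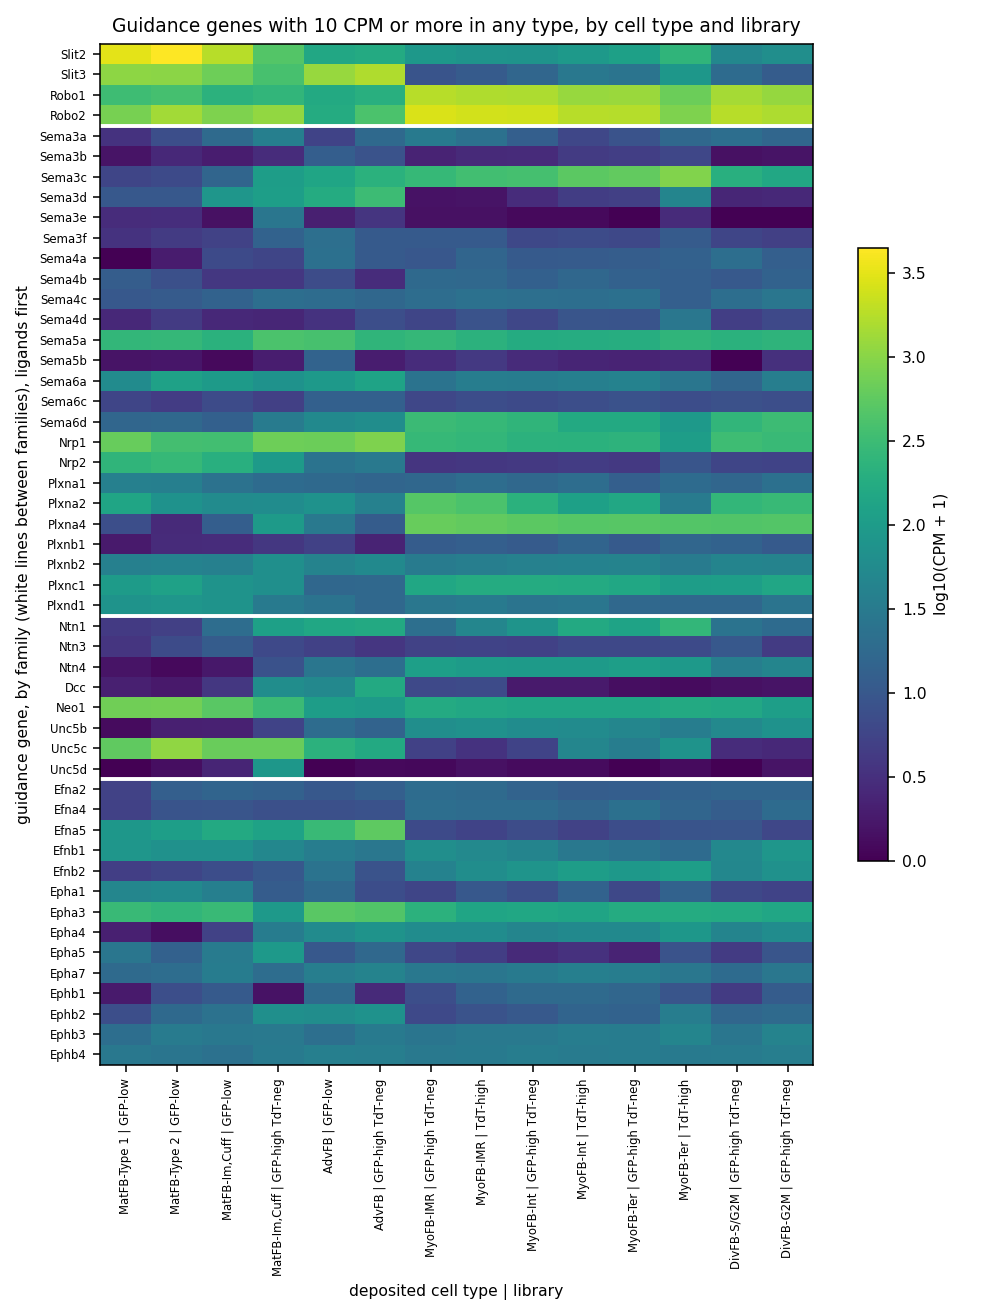
Level of the 50 guidance genes that reached 10 CPM in any cell type (rows, grouped by family) in each cell type and library with 50 or more cells (columns); colour is log10 of CPM + 1. Slit2, Unc5c and Nrp2 are brightest in the MatFB columns, Slit3, Efna5 and Sema3d in the AdvFB columns, and Robo1 and Plxna4 in the MyoFB columns. Robo2 is brightest in the MyoFB-IMR columns and also bright in MatFB columns.

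Slit2 was highest in MatFB-Type 2, Slit3 in AdvFB, and Robo1 and Robo2 in MyoFB-IMR, while Robo2 was also high in MatFB types. Slit2 (chromosome 5, 47983138 to 48307733, plus strand, GRCm38) stood at 3111 CPM in MatFB-Type 1, 4444 CPM (95% interval 4408 to 4481) in MatFB-Type 2 and 1790 CPM in MatFB-Im,Cuff of the GFP-low library. In the 6 combinations of MyoFB type and GFP-high library it lay between 73.5 and 246 CPM, and in AdvFB it was 151 CPM in GFP-low cells and 170.2 CPM in GFP-high TdT-neg cells. In GFP-high TdT-neg MatFB-Im,Cuff it was 462 CPM, the lowest MatFB level and still above the highest MyoFB level of 246 CPM. How many other genes have MatFB and MyoFB ranges apart was not counted. After thinning every cell to 5000 UMIs, Slit2 was seen in 100% of MatFB-Type 1 and MatFB-Type 2 cells and in 22.8% of GFP-high TdT-neg MyoFB-IMR cells, where the unthinned share was 36.9%. Alveolar markers summed to between 110 and 775 CPM in the MyoFB types, and whether Slit2 UMIs there come from free RNA was not tested.

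Slit3 (chromosome 11, 35121224 to 35708507, plus strand), the second secreted Slit, was high in both MatFB and AdvFB cells. It stood at 1072 CPM in MatFB-Type 1, 1015 CPM in MatFB-Type 2, 1232 CPM in GFP-low AdvFB and 1647 CPM (1619 to 1675) in GFP-high TdT-neg AdvFB. In MyoFB types it ran from 7.997 CPM in GFP-high TdT-neg MyoFB-IMR to 84.9 CPM in TdT-high MyoFB-Ter. AdvFB therefore had the highest Slit3 but little Slit2. Slit1 stayed at or below 3.81 CPM in every type.

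The receptors Robo1 (chromosome 16, 72308306 to 73046095, plus strand) and Robo2 (chromosome 16, 73891839 to 74411825, minus strand), neighbours on 1 chromosome, were highest in MyoFB-IMR. Robo1 reached 1802 CPM there in the GFP-high TdT-neg and 1628 CPM in the TdT-high library, against 367 CPM in MatFB-Type 2 and 162 to 200 CPM in AdvFB. Robo2 reached 2783 and 2480 CPM in the same MyoFB-IMR cells, against 1368 CPM in MatFB-Type 2 and 176 to 409 CPM in AdvFB. Its MatFB-Type 2 level lay above the 882 CPM of TdT-high MyoFB-Ter. After thinning, 1023 of 1032 GFP-high TdT-neg MyoFB-IMR cells (99.1%) held a UMI of both Robo1 and Robo2, with Robo1 in 99.5% and Robo2 in 99.6%. In MatFB-Type 2, 462 of 651 cells (71.0%) held both, with Robo1 in 73.4% and Robo2 in 96.0%. In GFP-high TdT-neg AdvFB, 94 of 328 cells (28.7%) held both, with Robo1 in 42.1% and Robo2 in 59.45%. Slit2 and Robo2 were both in 625 of 651 MatFB-Type 2 cells (96.0%), which is the share with Robo2, since Slit2 was in 100%. Whether any 2 genes shared cells more often than their single shares give was not tested. Robo3 and Robo4 did not exceed 2.31 CPM in any type.

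**Figure D2:**
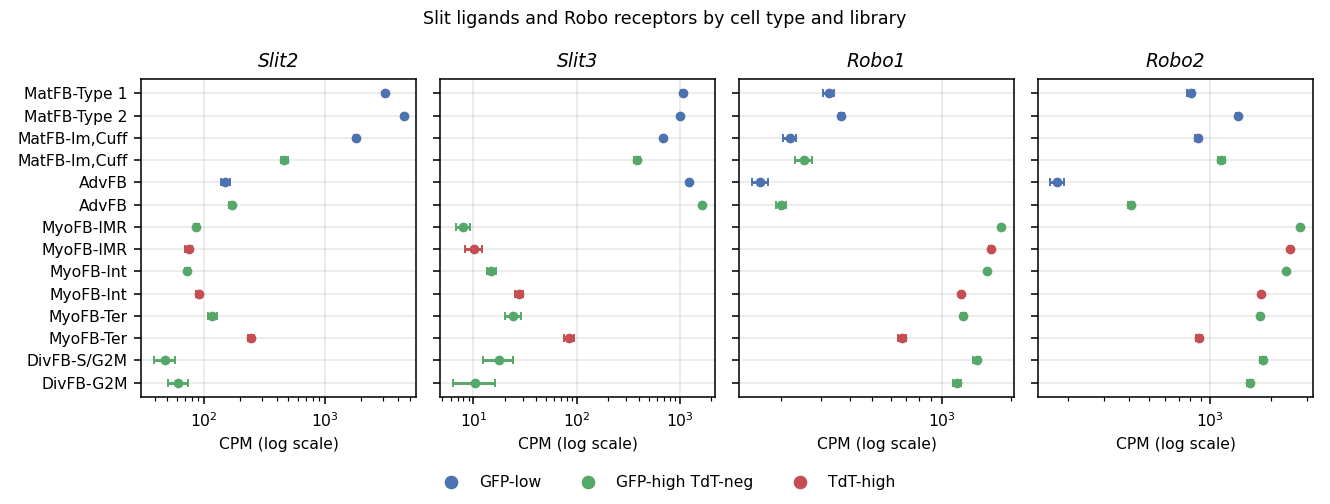
CPM (log axis) of Slit2, Slit3, Robo1 and Robo2 by cell type; points are libraries and bars are exact 95% Poisson intervals, which cover counting error only. Slit2 is highest in MatFB-Type 2 (4444 CPM), Slit3 in GFP-high TdT-neg AdvFB (1647 CPM), and Robo1 and Robo2 in GFP-high TdT-neg MyoFB-IMR (1802 and 2783 CPM).

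The promoter windows of 4 members are shown as examples and not as a representative sample of the members: Slit2 and Nrp2 were highest in MatFB types, Robo1 and Efnb2 in MyoFB types. Each is the RefSeq window of up to 250 bases before the annotated start on GRCm38.p6, written 5′ to 3′ on the strand of the gene with annotated exon bases left out. Capitals mark either of 2 strings on either strand, TATAAA, known from core promoters, and GGGCGG, the core of sites for the Sp1 factor, and neighbouring matches can overlap. The windows are chr5:47982905-47983137 (plus strand) for Slit2, chr1:62703067-62703284 (plus strand) for Nrp2, chr16:72662899-72663148 (plus strand) for Robo1 and chr8:8661243-8661492 (minus strand) for Efnb2. The Robo1 window lies inside the longer GENCODE model given above and belongs to an internal start.
Slit2: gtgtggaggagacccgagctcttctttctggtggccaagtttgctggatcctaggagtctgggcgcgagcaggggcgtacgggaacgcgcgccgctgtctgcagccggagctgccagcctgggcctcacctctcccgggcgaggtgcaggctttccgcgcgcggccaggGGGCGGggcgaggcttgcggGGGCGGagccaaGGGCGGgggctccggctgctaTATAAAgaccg
Nrp2: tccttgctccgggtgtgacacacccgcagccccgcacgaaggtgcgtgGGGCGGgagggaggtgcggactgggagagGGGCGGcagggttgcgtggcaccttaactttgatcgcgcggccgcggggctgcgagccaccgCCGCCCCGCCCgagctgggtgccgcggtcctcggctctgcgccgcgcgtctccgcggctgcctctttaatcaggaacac
Robo1: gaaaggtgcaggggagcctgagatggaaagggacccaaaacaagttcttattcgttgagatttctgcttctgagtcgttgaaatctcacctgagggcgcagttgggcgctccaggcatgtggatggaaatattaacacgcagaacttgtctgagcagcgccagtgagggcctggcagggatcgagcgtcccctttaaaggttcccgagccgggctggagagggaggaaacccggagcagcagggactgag
Efnb2: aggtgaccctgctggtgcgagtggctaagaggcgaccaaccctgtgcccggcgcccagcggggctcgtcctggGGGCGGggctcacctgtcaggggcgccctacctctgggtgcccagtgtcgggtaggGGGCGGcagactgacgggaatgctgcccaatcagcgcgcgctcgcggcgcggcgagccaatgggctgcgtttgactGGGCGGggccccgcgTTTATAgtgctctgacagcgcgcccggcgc
Slit2 and Efnb2 hold a TATAAA match, and Slit2, Nrp2 and Efnb2 hold GGGCGG matches, while the Robo1 window holds neither string. Over all members, 60 had a window and 76 windows were found. TATAAA occurred in 2 of those 76 (2.63%), the 2 printed, against 12.4% of 32851 windows of all genes. GGGCGG occurred in 54 of 76 (71.1%), against 32.7% of all windows. A match is a string of letters and no binding was measured.

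In the semaphorin family Plxna4, Plxna2 and Sema3c had their highest level in a MyoFB type, Nrp2 in MatFB-Type 2 and Sema3d in AdvFB. Plxna2 did not mark the MyoFB types as a whole. It was at 489 CPM in GFP-high TdT-neg MyoFB-IMR, but its lowest level of any type was in TdT-high MyoFB-Ter, at 31.9 CPM. Sema6d was highest in DivFB-G2M and next in MyoFB-IMR. Plxna4, a plexin that signals for class 3 and class 6 semaphorins (chromosome 6, 32144268 to 32588192, minus strand), stood between 470 and 624 CPM in all 6 combinations of MyoFB type and GFP-high library. It stood at 6.45 CPM in MatFB-Type 1, 1.75 CPM in MatFB-Type 2 and 10.7 to 28.5 CPM in AdvFB. The MyoFB range lay above all of these levels and above those in MatFB-Im,Cuff, which are given further below. How many other genes do the same was not counted. After thinning, 87.2% of GFP-high TdT-neg MyoFB-IMR cells and 1.08% of MatFB-Type 2 cells had a Plxna4 UMI, and unthinned 98.7% and 2.46% did.

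The neuropilins, the ligand-binding partners of class 3 semaphorins, had a different distribution from Plxna4. Nrp2 (chromosome 1, 62703285 to 62818695, plus strand) stood at 239 CPM in MatFB-Type 1, 278 CPM in MatFB-Type 2, 23.4 to 28.7 CPM in AdvFB and 2.70 to 8.03 CPM in MyoFB types. Nrp1 was found in every type, from 105 CPM in TdT-high MyoFB-Ter to 878 CPM in GFP-high TdT-neg AdvFB, with 696 CPM in GFP-high TdT-neg MatFB-Im,Cuff and 638 CPM in MatFB-Type 1. After thinning, 582 of 1032 GFP-high TdT-neg MyoFB-IMR cells (56.4%) held a UMI of both Nrp1 and Plxna4, against 6 of 651 MatFB-Type 2 cells (0.922%). Nrp1 was in 65.3% and 75.3% of these cells in that order and Plxna4 in 87.2% and 1.08%, so the difference follows Plxna4.

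The secreted ligands Sema3c and Sema3d were both low in MatFB-Type 1 and MatFB-Type 2 and differed elsewhere. Sema3c (chromosome 5, 17574281 to 17730268) was at 4.84 and 5.64 CPM in those types, 138 to 215 CPM in AdvFB and 278 to 893 CPM in MyoFB types. Sema3d was at 9.13 and 9.002 CPM in the same MatFB types, 177 to 321 CPM in AdvFB and between 0.491 and 4.0 CPM in 5 of the 6 MyoFB combinations, TdT-high MyoFB-Ter being the exception at 45.0 CPM. The membrane ligand Sema6d, a plexin A ligand, stood at 301 CPM in GFP-high TdT-neg MyoFB-IMR and 318 CPM in DivFB-G2M, against 15.1 and 15.9 CPM in MatFB-Type 1 and MatFB-Type 2. Sema5a was broad, between 174 and 408 CPM in every type. Plxnc1 and Plxnd1, receptors that do not need a neuropilin, were both detected in MatFB types, Plxnc1 at 120 and Plxnd1 at 80.2 CPM in MatFB-Type 2, while in MyoFB types Plxnc1 ran from 106 to 173 CPM and Plxnd1 from 15.5 to 30.9 CPM.

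Among the netrin receptors, Unc5c and Neo1 were highest in MatFB types, Unc5b was higher in MyoFB types than in MatFB-Type 1 and MatFB-Type 2, and Dcc was highest in AdvFB. Unc5c, a repulsive netrin receptor (chromosome 3, 141465216 to 141834924, plus strand), stood at 580 CPM in MatFB-Type 1, 1115 CPM in MatFB-Type 2 and 651 to 661 CPM in MatFB-Im,Cuff. In GFP-high TdT-neg cells it was 4.02 CPM in MyoFB-IMR, 4.45 CPM in MyoFB-Int and 33.7 CPM in MyoFB-Ter. Neo1 (chromosome 9, 58874687 to 59036441), a receptor shared with the repulsive guidance molecules, was at 715 and 732 CPM in MatFB-Type 1 and MatFB-Type 2 and between 97.2 and 169 CPM in AdvFB and MyoFB types. The 2 receptors thus both had their highest level in MatFB-Type 2, and whether the same single cells held both was not examined.

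Ntn1, the founding secreted netrin (chromosome 11, 68209364 to 68400823, minus strand), was at 3.22 CPM in MatFB-Type 1 and 3.89 CPM in MatFB-Type 2. It was at 147 and 164 CPM in AdvFB and between 20.5 and 260.5 CPM in the MyoFB types. Ntn4, a basement membrane netrin, was at 0.537 and 0.229 CPM (2 and 3 UMIs) in the same MatFB types, 19.6 to 25.8 CPM in AdvFB and 91.1 to 115 CPM in MyoFB types. Unc5b, a receptor best known from endothelial cells, was at 33.9 to 69.6 CPM in MyoFB types against 0.269 and 1.07 CPM in MatFB-Type 1 and MatFB-Type 2. Dcc was highest at 164.5 CPM in GFP-high TdT-neg AdvFB and at most 5.84 CPM in MyoFB types, and the number of cells that held it is given further below.

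Among the ephrins, Efna5 was highest in AdvFB and Efnb2 in a MyoFB type, while Epha4 was found in both classes. Efna5 (chromosome 17, 62604184 to 62881317), a lipid-anchored ephrin, was at 299.9 CPM in GFP-low AdvFB and 549 CPM in GFP-high TdT-neg AdvFB, 83.3 to 161 CPM in MatFB types and 4.16 to 7.77 CPM in MyoFB types. Its receptor Epha3 was also highest in AdvFB, at 515 and 457 CPM, and ran from 136 to 220.0 CPM in MyoFB types. Efnb2, a transmembrane ephrin known from arteries (chromosome 8, 8617434 to 8661242, minus strand), was at 40.0 to 110 CPM in MyoFB types against 3.76 and 4.73 CPM in MatFB-Type 1 and MatFB-Type 2. Epha4, which can bind both ephrin classes, was at 1.07 and 0.381 CPM (4 and 5 UMIs) in those MatFB types and at 44.1 to 84.7 CPM in AdvFB and MyoFB types. Epha1 went the other way, at 46.2 and 53.6 CPM in MatFB-Type 1 and MatFB-Type 2 and 4.71 to 13.2 CPM in MyoFB types. Epha5 was highest in GFP-high TdT-neg MatFB-Im,Cuff, at 94.6 CPM.

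Dividing cells of the GFP-high TdT-neg library (71 DivFB-S/G2M and 91 DivFB-G2M cells) had the MyoFB set of members. Robo2 stood at 1826 and 1577 CPM in them and Plxna4 at 452 and 464 CPM, while Slit3 was at 17.6 and 10.4 CPM and Unc5c at 1.91 and 1.65 CPM. Efnb1 and Sema6d had their highest levels among GFP-high TdT-neg types in DivFB-G2M, at 81.7 and 318 CPM. Some members, singled out after their values were seen, were detected in every type: Plxnb2, a receptor of class 4 semaphorins, ran from 31.9 to 63.7 CPM, Ephb4, the main receptor of Efnb2, from 22.3 to 36.4 CPM, and Epha7 from 17.5 to 41.9 CPM.

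The first comparison of libraries set GFP-high TdT-neg against GFP-low cells, which differ in the level of the Pdgfra reporter and both lack tdTomato. Of 68 members counted (10 UMIs in either library), 26 were at least 1.5-fold higher in GFP-high TdT-neg cells and 14 at least 1.5-fold lower. That is 38.2% and 20.6% of the members, where 14.9% and 10.8% of the 23380 genes counted over the whole table were higher and lower. The second pair of shares includes many genes at low CPM, which seldom reach 1.5-fold once 1 CPM is added. Of the 10059 genes with 10 CPM in the higher library, 18.0% were higher and 12.5% lower. The median log2 ratio of CPM + 1 was 0.28 over the members and 0.11 over all counted genes. By family the members higher and lower were 3 and 2 of 7 for Slit and Robo, 11 and 5 of 30 for the semaphorin family, 6 and 2 of 9 for the netrin family, and 6 and 5 of 22 for ephrins and Eph receptors. Library scaling by TMM lowered the log2 ratios of CPM in this comparison by 0.12, and those of CPM + 1 by less where levels were low. The counts became 25 and 17.

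The 6 members furthest above the GFP-low library were all higher in MyoFB than in MatFB-Type 1 and MatFB-Type 2 cells. Plxna4 was at 29.9 CPM in GFP-low, 473 CPM in GFP-high TdT-neg and 508 CPM in TdT-high cells, 15.8-fold higher (14.8 to 17.01) in GFP-high TdT-neg than in GFP-low cells. Unc5b stood at 5.23, 51.3 and 58.1 CPM in the same order, 9.81-fold higher (8.28 to 11.7). Sema6d stood at 26.7, 224 and 194 CPM, 8.38-fold higher (7.77 to 9.04). Both GFP-high libraries thus lay far above the GFP-low library for these genes. Sema3c was 6.21-fold (5.88 to 6.57), Ntn4 5.76-fold (5.20 to 6.40) and Robo1 4.10-fold higher (4.01 to 4.19).

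Of the 6 members furthest below, 5 had their highest level in a MatFB type and Slit3 in AdvFB. Slit2 was 21.1-fold lower (20.7 to 21.6) in GFP-high TdT-neg than in GFP-low cells, and TdT-high cells held 114 CPM. Nrp2 stood at 212, 12.3 and 4.52 CPM in the order GFP-low, GFP-high TdT-neg and TdT-high, 17.2-fold lower (16.0 to 18.5). Unc5c stood at 782, 57.4 and 39.0 CPM, 13.6-fold lower (13.2 to 14.1). Both GFP-high libraries were low in these 3 genes. Epha1 stood at 41.6, 6.41 and 11.8 CPM and Slit3 3.99-fold lower and Neo1 3.71-fold lower. Summed over the family, the Slit ligands stood at 3898 CPM in GFP-low, 376 CPM in GFP-high TdT-neg and 149 CPM in TdT-high cells, while the Robo receptors stood at 1358, 3503 and 3177 CPM.

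The second comparison set TdT-high against GFP-high TdT-neg cells, which share a high Pdgfra reporter and differ in the Fgf18-CreERT2 label. Of 68 counted members 5 were higher (Ntn1, Epha1, Efnb2, Sema3c and Sema4d) and 8 lower (Efna5, Dcc, Slit3, Sema3d, Unc5d, Nrp2, Epha5 and Nrp1) in TdT-high than in GFP-high TdT-neg cells. That is 7.35% and 11.8% of the members, where 3.26% and 4.35% of all 23169 genes counted were higher and lower. Ntn1 was at 34.4 CPM in GFP-low, 70.6 CPM in GFP-high TdT-neg and 132 CPM in TdT-high cells, 1.87-fold higher (1.79 to 1.94) in the last. Epha1 was 1.84-fold higher (1.61 to 2.11), Efnb2 1.66-fold higher (1.58 to 1.74) and Sema3c 1.60-fold higher (1.56 to 1.63), and Plxnb1 and Ephb1 came next at 1.47-fold and 1.36-fold. Efna5 was at 135, 78.4 and 6.75 CPM in the same order, 11.6-fold lower (10.2 to 13.3) in TdT-high than in GFP-high TdT-neg cells. Dcc was 9.07-fold, Slit3 6.99-fold, Sema3d 5.93-fold, Nrp2 2.72-fold and Nrp1 1.56-fold lower.

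The lower members of that comparison were AdvFB or MatFB genes, and AdvFB made up 9.80% of GFP-high TdT-neg and 0.265% of TdT-high cells. With only MyoFB types in both libraries, 8 members were higher (Unc5c, Ntn1, Slit3, Sema3d, Epha1, Sema4d, Ephb2 and Efna1) and 2 lower (Plxna2 and Sema3a) of 67, where 3.62% and 1.45% of all counted genes were. Slit3 and Sema3d then changed direction: Slit3 was at 13.1 CPM in GFP-high TdT-neg and 28.6 CPM in TdT-high MyoFB cells, 2.18-fold higher (1.97 to 2.41). Unc5c was at 7.24 and 35.1 CPM, 4.85-fold higher (4.31 to 5.46). Ntn1 was at 59.7 and 135.5 CPM, 2.27-fold higher (2.17 to 2.38), a larger ratio than over all cells. Plxna2 was 1.56-fold lower and Sema3a 1.55-fold lower.

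**Figure D3:**
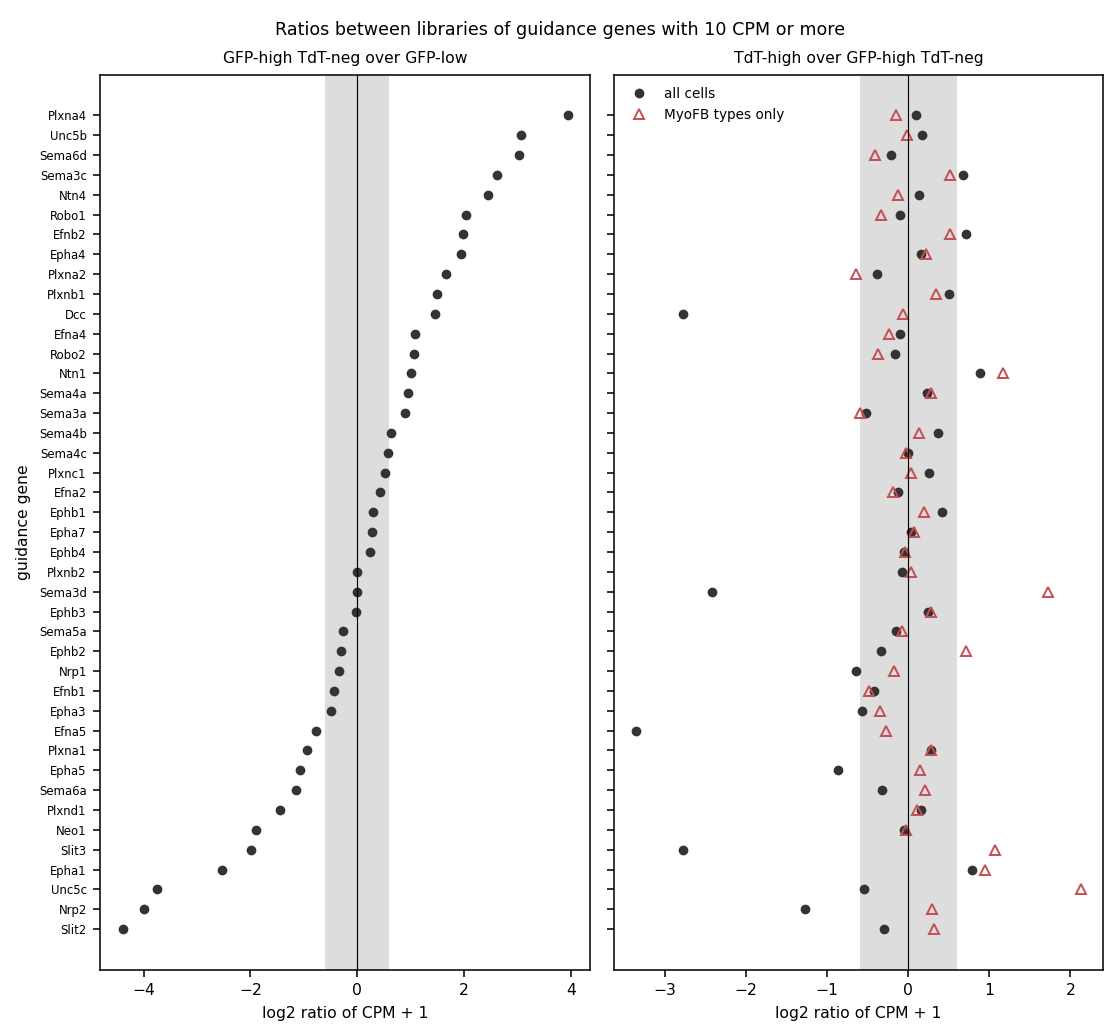
Log2 ratio of CPM + 1 between libraries for guidance genes with 10 CPM or more in any of the 3 libraries; dots are all cells, triangles only the MyoFB types, and the grey band holds ratios under 1.5-fold. For TdT-high over GFP-high TdT-neg, Slit3 lies at -2.77 with all cells and at 1.07 with only MyoFB types, while Ntn1 is above the band in both.

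Across the 3 MyoFB types of the GFP-high TdT-neg library, in the order IMR, Int and Ter, Robo1, Robo2 and Plxna2 stepped down while Sema3c and Ntn1 stepped up; the order of the names carries no time. Ter over IMR, 12 members were higher and 15 lower of 63 counted, where 7.28% and 16.4% of all counted genes were. Plxna2, a plexin A receptor, stood at 489, 212 and 153 CPM and was 3.19-fold lower (2.97 to 3.43) in Ter than in IMR. Sema6d stood at 301, 239 and 166 CPM, 1.81-fold lower. Efnb1 was 2.62-fold and Sema3a 4.00-fold lower. Ntn1 stood at 20.5, 75.7 and 129 CPM, 6.31-fold higher (5.58 to 7.14). Unc5c was 8.38-fold, Slit3 3.02-fold and Ephb2 2.43-fold higher in Ter than in IMR. Among members outside the naming rule for this comparison, added after their values were seen, Sema3c stood at 278, 375 and 600 CPM and Robo2 at 2783, 2387 and 1770 CPM.

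The same steps were seen in the TdT-high library. There Ntn1 stood at 46.2, 163 and 260.5 CPM in IMR, Int and Ter, Sema3c at 343, 541 and 893 CPM and Efnb2 at 59.6, 107 and 110 CPM. Plxna2 stood at 404, 116 and 31.9 CPM, Robo1 at 1628, 1215 and 672 CPM and Robo2 at 2480, 1783 and 882 CPM. From IMR to Ter the levels of each of these genes differed in the same direction in both libraries. After thinning, the share of cells with an Ntn1 UMI was 7.36%, 25.2% and 40.6% in GFP-high TdT-neg and 18.2%, 45.8% and 60.5% in TdT-high IMR, Int and Ter cells. Unthinned, these shares were 19.4%, 51.5% and 69.3%, and 45.6%, 81.9% and 91.6%.

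**Figure D4:**
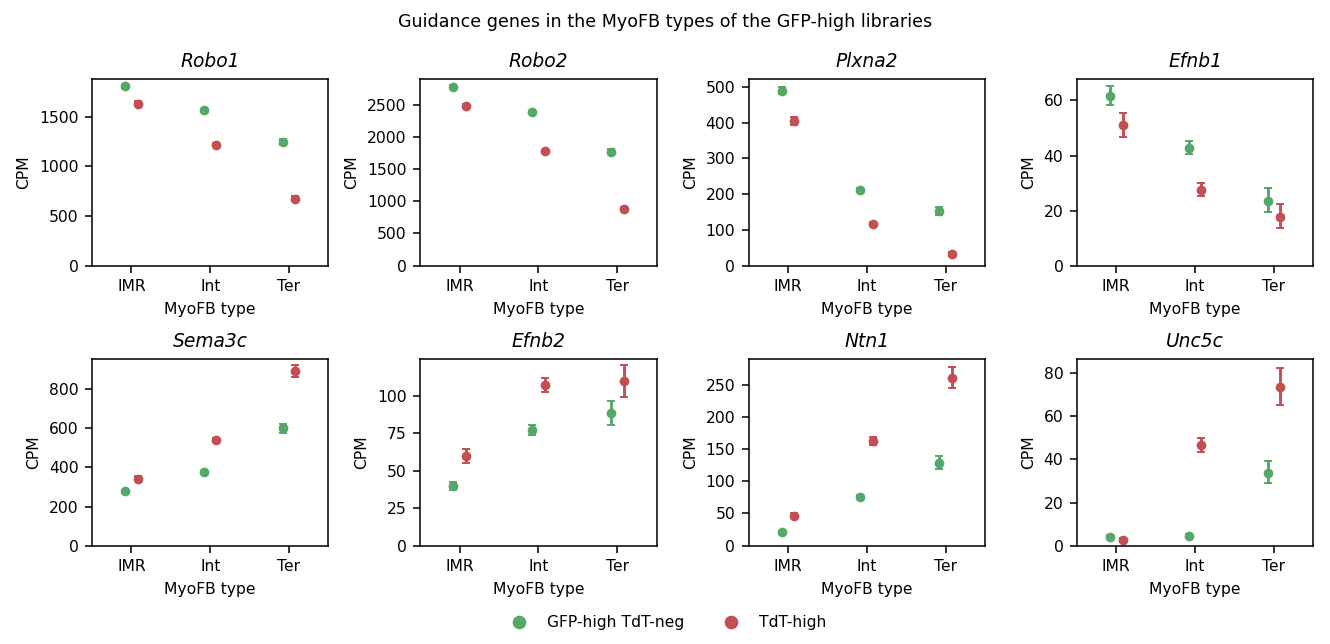
CPM of 8 guidance genes in MyoFB-IMR, MyoFB-Int and MyoFB-Ter of both GFP-high libraries; bars are exact 95% Poisson intervals, which cover counting error only. Robo1, Robo2, Plxna2 and Efnb1 step down from IMR to Ter, while Sema3c and Ntn1 step up, Ntn1 from 20.5 to 129 CPM in GFP-high TdT-neg and from 46.2 to 260.5 CPM in TdT-high cells.

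Within a single MyoFB type, Ntn1 was higher in TdT-high cells in each case. In MyoFB-IMR 4 members were higher and 1 lower of 63 counted (4.50% and 2.08% of all counted genes). Ntn1 was at 20.5 CPM in TdT-neg and 46.2 CPM in TdT-high cells, 2.26-fold higher (1.98 to 2.58). Ephb1 was at 6.62 and 13.2 CPM and Sema4a at 8.63 and 14.2 CPM, and the 1 lower member, Epha3, was at 220.0 and 138 CPM, 1.60-fold lower.

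In MyoFB-Int 7 members were higher and 3 lower of 64 (4.40% and 2.99% of all counted genes). Unc5c was at 4.45 CPM in TdT-neg and 46.6 CPM in TdT-high cells, 10.5-fold higher (8.63 to 12.8), and 54 of 1324 against 155 of 801 cells held a UMI of it. Ntn1 was at 75.7 and 163 CPM, 2.15-fold higher (2.03 to 2.28). Slit3 was at 14.8 and 27.8 CPM, 1.88-fold higher. Plxna2 was at 212 and 116 CPM, 1.84-fold lower (1.75 to 1.93), and Sema3a was 2.33-fold, Efnb1 1.56-fold and Sema6d 1.47-fold lower. The higher Unc5c came with more cells that had the transcript, also after thinning, at 1.89% and 9.86%.

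In MyoFB-Ter the libraries differed most, with 14 members higher and 11 lower of 54 (11.2% and 13.1% of all counted genes). Sema3d was at 3.96 CPM in TdT-neg and 45.0 CPM in TdT-high cells, 11.4-fold higher (7.22 to 18.9). Slit3 was at 24.1 and 84.9 CPM, 3.52-fold higher (2.86 to 4.36), Sema4d 3.44-fold and Ephb2 2.59-fold higher. Plxna2 was at 153 and 31.9 CPM, 4.81-fold lower (3.98 to 5.87). Robo2 was at 1770 and 882 CPM, 2.01-fold lower (1.93 to 2.09), Robo1 1.85-fold and Nrp1 2.15-fold lower. Most of the TdT-high MyoFB-Ter cells, 142 of 190, formed a cluster apart, made without the guidance genes, that held only 8 of the 303 TdT-neg cells. Smooth muscle markers summed to 2947 CPM in those 142 cells and 1656 CPM in the other 48, and pericyte markers to 1204 and 576 CPM; their part in the result was not tested. Without that cluster 16 members were higher and 12 lower of 52 (9.32% and 22.2% of all counted genes), with Sema3d at 1.74 and 31.8 CPM, Plxna2 at 155 and 24.4 CPM and Robo2 at 1790 and 1060 CPM. Without it Robo1 was at 1245 and 867 CPM (1.44-fold lower) and Nrp1 at 229.9 and 178 CPM (1.29-fold lower), both within 1.5-fold.

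In AdvFB 11 members were higher and 12 lower in GFP-high TdT-neg than in GFP-low cells, of 55 counted (11.9% and 11.2% of all counted genes). Robo2 was at 176 CPM in GFP-low AdvFB and 409 CPM in GFP-high TdT-neg AdvFB, 2.32-fold higher (2.13 to 2.53). Efna5 was 1.83-fold higher (1.71 to 1.96) and Sema3a was at 4.35 and 16.8 CPM. Dcc was at 49.7 and 164.5 CPM, 3.31-fold higher by counting, but its UMIs were concentrated. In GFP-low AdvFB 183 Dcc UMIs came from 13 of 148 cells and 88 of them from a single cell, and in GFP-high TdT-neg AdvFB 1352 came from 98 of 328 cells. Sema5b was at 13.6 and 0.974 CPM, 14.0-fold lower (6.56 to 34.1), and Ephb1 at 17.1 and 1.70 CPM, 10.0-fold lower (5.57 to 19.4). Efnb2 was 3.05-fold and Plxna4 2.66-fold lower.

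Most Ephb1 and Sema5b UMIs of GFP-low AdvFB lay in a cluster of 55 of its 148 cells, made without the guidance genes. The cluster depended on the clustering resolution, which was 1.0. At 0.5 its cells fell in 1 cluster with 398 other AdvFB cells, and at 2.0 with 1 other. In the 55 cells against the main AdvFB cluster of the same library (89 cells), 15 members were higher and 20 lower of 49 (16.7% and 23.1% of all counted genes). Ephb1 was at 45.3 CPM in the 55 cells and 1.74 CPM in the main cluster, Sema5b at 32.3 and 3.48 CPM, Ephb6 at 15.4 and 1.30 CPM and Efnb2 at 48.4 and 9.56 CPM. The Ephb1 UMIs came from few cells, 90.5% of those in GFP-low AdvFB from 5 cells. Robo2 was at 12.3 and 244 CPM, 19.8-fold lower (12.1 to 34.9), Sema3d at 28.4 and 262 CPM, Nrp2 at 1.54 (2 UMIs) and 31.7 CPM, and Dcc had 0 UMIs (upper 95% limit 2.83 CPM) against 79.5 CPM. Slit3, added after its value was seen, was close in both, at 1196 and 1266 CPM. Smooth muscle markers summed to 3278 CPM in the 55 cells and 37.8 CPM in the main cluster, and their part in the result was not tested. With only the main cluster in both libraries, 11 members were higher and 7 lower of 52 (10.8% and 8.86% of all counted genes), Dcc at 79.5 and 173 CPM, Efna5 at 332 and 572 CPM and Plxna4 at 18.2 and 10.99 CPM.

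In MatFB-Im,Cuff 17 members were higher and 11 lower in GFP-high TdT-neg (110 cells) than in GFP-low cells (205), of 50 counted (16.8% and 16.2% of all counted genes). Slit2 was at 1790 and 462 CPM in GFP-low and GFP-high TdT-neg cells, 3.87-fold lower (3.62 to 4.15) in the latter, Epha3 3.23-fold, Epha1 3.39-fold and Plxnd1 2.38-fold lower. Plxna4 was at 11.4 and 97.5 CPM, 8.57-fold higher. Unc5d was at 1.42 and 84.5 CPM, Sema3e at 0.474 (2 UMIs) and 26.1 CPM, and Dcc at 2.85 and 61.3 CPM. These 3 rested on few cells: 175 Unc5d UMIs came from 12 of 110 cells, with 78.3% in the 5 richest, 54 Sema3e UMIs from 13 cells with 75.9% in 5, and 127 Dcc UMIs from 16 cells with 76.4% in 5. Counting intervals do not cover such unevenness.

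The type was made of different cells in the 2 libraries. A cluster apart held 92 of the 110 GFP-high TdT-neg but 18 of the 205 GFP-low MatFB-Im,Cuff cells. Inside it Slit2 was at 392 CPM in GFP-low cells and 496 CPM in GFP-high TdT-neg cells. Plxna4 was at 97.4 and 112 CPM and Ntn1 at 122 and 124 CPM. For these genes the libraries, which differed over the whole type, were within 1.5-fold of each other here. Other members still differed inside the cluster, given in the same order of libraries. Epha3 was at 189 and 86.4 CPM and Unc5d at 8.11 (3 UMIs) and 106 CPM. Dcc was at 2.70 (1 UMI) and 45.3 CPM and Sema3e at 0 and 18.7 CPM. In that cluster 12 members were higher and 4 lower of 41 (22.1% and 12.1% of all counted genes), and all Unc5d UMIs of the GFP-high TdT-neg cells lay in it. Several of these calls have intervals that include equal levels, as for Sema6d at 4 and 47 UMIs (2.63-fold higher, 0.960 to 10.03). In the other cells of the type (187 GFP-low and 18 GFP-high TdT-neg) 20 members were higher and 8 lower of 46 (20.9% and 25.1% of all counted genes), with Slit2 at 1924 and 327 CPM, Plxna4 at 3.12 and 38.4 CPM (12.3-fold higher, 5.47 to 28.6) and Ntn1 at 9.35 and 84.1 CPM (8.99-fold higher, 5.48 to 14.7), so outside the cluster the libraries differed in all 3 genes. Some of the calls outside the cluster also have intervals that include equal levels, as for Sema6b at 10 and 2 UMIs (1.85-fold higher, 0.197 to 8.68).

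**Figure D5:**
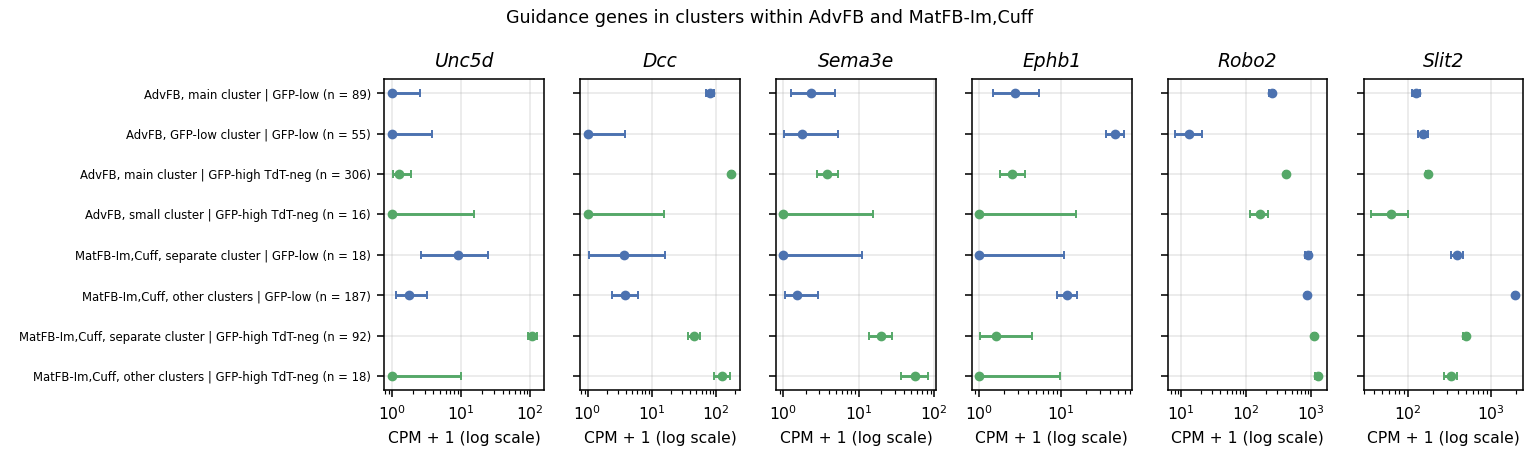
CPM + 1 (log axis) of Unc5d, Dcc, Sema3e, Ephb1, Robo2 and Slit2 in the clusters of AdvFB and MatFB-Im,Cuff by library; n is the number of cells and bars are exact 95% Poisson intervals, which cover counting error only. Ephb1 is highest in the cluster of 55 GFP-low AdvFB cells (45.3 CPM), Unc5d in the separate MatFB-Im,Cuff cluster of GFP-high TdT-neg cells (106 CPM).

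Types of 1 library were also set side by side. In GFP-high TdT-neg cells, MyoFB types over AdvFB, 26 members were higher and 17 lower of 67 (24.3% and 12.8% of all counted genes). Plxna4 was at 571 and 10.7 CPM, 53.3-fold higher (43.3 to 66.5) in MyoFB types, followed by Plxnc1 at 9.86-fold and Robo1 and Plxna2 at 8.10-fold each. Sema3d was 206-fold lower (165 to 260), Slit3 125.5-fold, Efna5 94.4-fold and Dcc 64.2-fold lower in MyoFB types. In GFP-low cells, MatFB-Type 2 over the main AdvFB cluster, 17 members were higher and 21 lower of 60 (27.1% and 18.2% of all counted genes). Slit2 was at 4444 and 125 CPM, 35.6-fold higher (31.7 to 40.2), Unc5c 9.95-fold, Neo1 8.78-fold and Nrp2 8.75-fold higher, whereas Ntn1 was at 3.89 and 171 CPM, 43.9-fold lower.

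MatFB-Type 1 and MatFB-Type 2 were closer to each other. MatFB-Type 2 over MatFB-Type 1, 15 members were higher and 5 lower of 58 (12.8% and 6.88% of all counted genes). Low genes reach 10 UMIs more easily in MatFB-Type 2, with 651 cells against 199, so this surplus of higher calls cannot be read as a result. Of the 9297 genes with 10 CPM in the higher type, 6.66% were higher and 6.35% lower. Unc5c was at 580 CPM in Type 1 and 1115 CPM in Type 2, 1.92-fold higher, and Sema6a at 55.9 and 119 CPM, 2.14-fold higher. Ephb2 and Efna2 were 2.60-fold and 2.68-fold higher. Nrp1 was at 638 and 358 CPM, 1.78-fold lower in Type 2, and Plxna2 1.90-fold and Epha5 2.09-fold lower.

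A list of 67 partners, the co-receptors and inner effectors of these families, was read in the same way. In GFP-high TdT-neg over GFP-low cells 19 partners were higher and 16 lower of 67 (28.4% and 23.9%, against 14.9% and 10.8% of all counted genes), and with TMM scaling 15 and 20. Of all genes with 10 CPM in the higher library, 18.0% were higher and 12.5% lower. Met, the hepatocyte growth factor receptor that associates with plexins, was at 8.50 CPM in GFP-low cells and 91.0 CPM in GFP-high TdT-neg cells. Srgap1, a GTPase activator downstream of Robo, was at 80.6 and 257 CPM, and Mical2, an actin oxidase of a family downstream of plexins, at 58.2 and 174 CPM. Mical3 was at 262 and 50.7 CPM, Vegfa, a neuropilin ligand, at 109 and 33.9 CPM, and Tiam1, a Rac activator, at 54.1 and 18.4 CPM. In TdT-high over GFP-high TdT-neg cells 2 partners were higher and 3 lower of 66 (3.03% and 4.55%), close to the 3.26% and 4.35% of all counted genes. Pak3 was at 28.2 CPM in TdT-neg and 54.0 CPM in TdT-high cells, and Vav3 at 13.8 and 1.42 CPM.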

How the data were processed

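Sorted cells of 3 gates gave 1 library each with 10x 3′ v3.1 reagents, per the labels' protocols. The submitters' processing notes name Cell Ranger 7.0.0 and the mm10 build. Raw UMI counts were deposited as a matrix, whose sums equalled the deposited totals in all 6142 cells (5446 to 58130 UMIs each), and the deposited cell table gives the percent of mitochondrial UMIs and the type. How types were called, whether intronic reads were counted and whether a library pools pups are points not given in the sources used here. No cell was left out and doublets were not removed.

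UMIs were summed per library and type and scaled to CPM. Ratios are of CPM, calls are of CPM + 1 from 1.5-fold with 10 UMIs in either library, and no test was run. A call does not use the interval, so some called members have intervals that include equal levels. Where the totals are unequal, more low genes pass the UMI minimum through the group with more UMIs, on the side where they are high. Levels are given for types of 50 cells or more and comparisons within a type from 100. Ratios have exact conditional binomial intervals and sums Poisson intervals (95%). The limit for 0 UMIs was set at 3 UMIs (0.113, 0.0437 and 0.0869 CPM in GFP-low, GFP-high TdT-neg and TdT-high). Shares of cells were also computed on cells thinned to 5000 UMIs. Clusters are Leiden (resolution 1.0, 30 components, 15 neighbours) on 2000 variable genes with the guidance genes left out. The members and lists were chosen with earlier results of these data known. Named members were, with 10 CPM in the higher library, the 6 highest and 6 lowest ratios between libraries and 4 of each within types, plus 3 per family by level and 3 by range over types, and 3 partners per direction. The calculation was tested on simulated data. Coordinates are from GENCODE M21. Python 3.11.15, scanpy 1.11.5, scipy 1.17.1, edgeR 4.0.16 and DESeq2 1.42.0 were used, the last pair for alternative scaling only.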

Additional observations from a re-analysis of the deposited data

Results flagged for a closer look

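Members that were called in opposite directions under the same pair of libraries in different cell types are listed here; the difference between types was not tested, since each library is single. Plxna4 had a log2 ratio of GFP-high TdT-neg over GFP-low of -1.33 in AdvFB and 2.99 in MatFB-Im,Cuff, Sema3f of -1.01 and 1.41, and Sema5a of -0.63 and 0.93. Both types held clusters filled mainly by 1 library. In the main AdvFB cluster alone these log2 ratios were -0.68 for Plxna4, -0.39 for Sema3f and -0.35 for Sema5a, and in the separate MatFB-Im,Cuff cluster alone 0.21, 0.33 and 0.64, so in these cells Plxna4 in AdvFB and Sema5a in MatFB-Im,Cuff kept their calls and the other 4 ratios were within 1.5-fold. For TdT-high over GFP-high TdT-neg, the log2 ratio of Sema3a was -1.075 in MyoFB-Int and 1.00 in MyoFB-Ter, where 66.1% of its 62 UMIs in TdT-high cells came from 5 cells, and that of Ephb1 was 0.90 in MyoFB-IMR and -0.85 in MyoFB-Ter. Without the separate MyoFB-Ter cluster, which held 142 of the 190 TdT-high cells, Sema3a in MyoFB-Ter was at 3.18 CPM (3 UMIs) in TdT-high and 7.73 CPM in GFP-high TdT-neg cells, a log2 ratio of -1.06 and thus the direction seen in MyoFB-Int (ratio 0.41, 95% interval 0.082 to 1.29). Without it Ephb1 in MyoFB-Ter had a log2 ratio of -0.38, within 1.5-fold.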

How the results depend on the processing

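No paired analysis was possible because each gate has 1 library. Of the counts over lists, 79 values under an alternative stayed within 1.5 times the main count and 14 did not. The other values were ratios of single genes, median ratios over a list and numbers of cells in the separate clusters. Of these, 358 stayed within their interval, 115 moved outside it and 5, all ratios of single genes, changed direction. In GFP-high TdT-neg over GFP-low cells, the 26 higher members became 16 with a pseudocount of 5 CPM and 17 at 2-fold, the 14 lower became 9 at 2-fold, and the 16 lower partners became 10 with a pseudocount of 5. In TdT-high over GFP-high TdT-neg cells, the 5 higher members became 3 with a pseudocount of 5, 0 at 2-fold and 8 with only MyoFB types, the 8 lower became 2 with only MyoFB types, and the 2 higher partners became 1 with a pseudocount of 5. With only MyoFB types the log2 ratio changed direction for Slit3 (1.07), Sema3d (1.72) and Nrp2 (0.29), a setting in which the AdvFB cells are left out. Within AdvFB the 12 lower members became 7 without the separate cluster. Within MatFB-Im,Cuff the 11 lower became 4 in the separate cluster alone, a setting chosen after the data were seen, where Slit2 (0.34) and Plxnd1 (0.72) changed direction. The Plxnd1 ratio there rests on 5 GFP-low and 38 GFP-high TdT-neg UMIs, and its interval (1.70-fold, 0.667 to 5.53) holds both directions. Within MyoFB-Ter, Robo1 and Nrp1 were no longer called lower without the separate cluster. Within MyoFB-IMR the 4 higher became 2 with a pseudocount of 5 and the 1 lower became 2 with totals without mitochondrial, ribosomal and haemoglobin genes, and within MyoFB-Int the 7 higher became 4 with a pseudocount of 5. For MyoFB-IMR and MyoFB-Int, which formed no separate cluster, that alternative was not run. The cause of these moves was not tested beyond the cells or genes each setting leaves out. Low counts limit the smallest groups: members at a few UMIs in a type cannot be ranked, and intervals say nothing about the spread between pups.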

Other observations

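Some types held fewer than 50 cells in a library and entered no comparison, and their values are given as a description. The 44 MatFB-Type 2 cells of the GFP-high TdT-neg library held Slit2 at 2484 CPM (2382 to 2590), Unc5c at 820 CPM, Nrp2 at 214 CPM and Plxna4 at 23.6 CPM. The 21 MyoFB-IMR cells of the GFP-low library held Robo1 at 1032 CPM, Robo2 at 1743 CPM and Plxna4 at 524 CPM. The 23 MyoFB-Ter cells of the GFP-low library stood apart from the MyoFB-Ter cells of the GFP-high libraries, with Robo1 at 230 CPM, Robo2 at 163 CPM, Nrp2 at 157 CPM, Sema3e at 91.9 CPM and Ntn4 at 359 CPM, and smooth muscle markers summed to 6231 CPM in them. A cluster of 16 GFP-high TdT-neg AdvFB cells held Ntn1 at 384 CPM, Nrp2 at 151 CPM and Sema3a at 147.5 CPM, against 160, 24.8 and 12.1 CPM in the 306 cells of the main AdvFB cluster of that library.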
